A study of Mus musculus with 30 samples.

Results

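Histone H3 lysine 4 monomethylation (H3K4me1) was compared between A12 cells that received E47-ER and A12 cells that received bHLH-ER, with 1 chromatin immunoprecipitation sequencing (ChIP-seq) library for each protein. The members are the H3K4me1 regions that the authors deposited for these 2 libraries, chosen by their labels alone: 10185 regions with E47-ER and 11624 with bHLH-ER, together 21809 of the 323966 regions in the 24 peak lists of the series. The whole series holds 30 mouse samples, mostly of B cell progenitors, and A12 was its T cell counterpart. A12 is a cell line that lacks E2A (E2A-/-), labelled as C57BL/6 and as a double-positive T cell. E47-ER is the full-length E2A protein E47 fused to the ligand-binding domain of the estrogen receptor (ER), which holds it inactive until tamoxifen is added, and bHLH-ER is the form without the transactivation domains. Both came from a retrovirus that also encodes human CD25 on the same transcript. After 21 h of culture, 1 µM tamoxifen was added for 6 h, and cells with surface human CD25 were then enriched magnetically. E2A itself was mapped in A12 cells with E47-ER under the same schedule, giving 17030 peaks. No E2A list with bHLH-ER, and no A12 list without either protein, was analysed here. How much of each protein the cells held, and where bHLH-ER bound, was therefore not measured here.

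E2A proteins, encoded by Tcf3, are transcription factors of the basic helix-loop-helix (bHLH) class that bind the short DNA motif called the E-box as dimers. Their transactivation domains recruit coactivators, among them histone acetyltransferases, while the bHLH part suffices for dimer formation and DNA binding. In developing T cells, E proteins support receptor gene rearrangement and the expression of T lineage genes, and Id proteins oppose them by forming dimers that cannot bind DNA. H3K4me1 is a mark of enhancers, both active and poised, and is often lower right at a bound factor than on the nucleosomes beside it.

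With 1 library for each protein there was no replicate, so no difference below has a test across cultures, and none was made. Intervals are 95% Wilson intervals and cover counting error only. A region missing from a list may carry the mark in fewer cells or carry less of it per cell. It may also carry as much of the mark and be missed through read depth or peak calling. These cannot be told apart. Each H3K4me1 region is 1000 bp wide and each E2A peak 200 bp wide. The authors' score, whose unit the sources used here do not give, ranged from 16 to 342 in the E47-ER list, from 14 to 247 in the bHLH-ER list and from 6 to 101 in the E2A list, and is used only to rank regions within a list. Regions of 1 list rarely neighboured each other: 1.40% in the E47-ER list and 1.39% in the bHLH-ER list had another start within 5 kb, against 19.6% of E2A peaks.

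Just over 50 percent of the E47-ER regions were also regions with bHLH-ER. At an overlap of at least 1 bp, 5317 regions were shared, which was 52.2% of the E47-ER list (interval 51.2% to 53.2%) and 45.7% of the bHLH-ER list (44.8% to 46.6%). E47-ER alone had 4868 regions, 47.8% of its list, and bHLH-ER alone had 6307, 54.3% of its list. Shared regions lay almost on top of each other, with a median of 125 bp between the centres of a pair and 75.7% of pairs within 250 bp. Regions of a single list were instead far from any region of the other list. The median distance to the nearest one was 32.5 kb for E47-ER-only regions and 38.9 kb for bHLH-ER-only regions, and 84.5% and 87.1% of them were more than 10 kb away. The split between the lists was thus mainly one of regions listed or not listed, not of small shifts in position.

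Overlap grew with the score of a region, but not to the end of the bHLH-ER list. In the E47-ER list, 36.3% of the regions scored 16 to 22 were shared, against 64.5% of those scored 38 to 48 and 63.5% of those scored 49 or more. In the bHLH-ER list, the share was 30.2% at scores 14 to 17, 55.3% at scores 23 to 30 and 49.3% at scores of 40 or more. At the top of both lists, 368 E47-ER regions and 555 bHLH-ER regions therefore had no partner. The shared fraction was similar across chromosomes, from 40.8% of E47-ER regions on chromosome X to 57.5% on chromosome 17. The mock immunoprecipitation overlapped 0.123% of E47-ER-only, 0.0376% of shared and 0.127% of bHLH-ER-only regions.

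E2A peaks lay in a minority of regions of every class. Of the E47-ER-only regions, 714 held an E2A peak (14.7%, interval 13.7% to 15.7%), of the shared regions 865 (16.3%, 15.3% to 17.3%) and of the bHLH-ER-only regions 725 (11.5%, 10.7% to 12.3%). Over whole lists the share was 15.5% for E47-ER and 13.9% for bHLH-ER. E47-ER-only regions exceeded bHLH-ER-only regions by 3.17 percentage points, in the same direction on 17 of 20 chromosomes, with a range from -5.61 points on chromosome 18 to 10.1 points on chromosome 8. That difference moved with the lists used. It was 0.775 points when both H3K4me1 lists were cut to the same length, -0.244 points when only the upper 50% of the E2A list by score was kept, and 4.41 points when only the upper 50% of each H3K4me1 list was kept. E47-ER-only regions did not exceed the shared ones, standing 1.60 points below them.

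**Figure D1:**
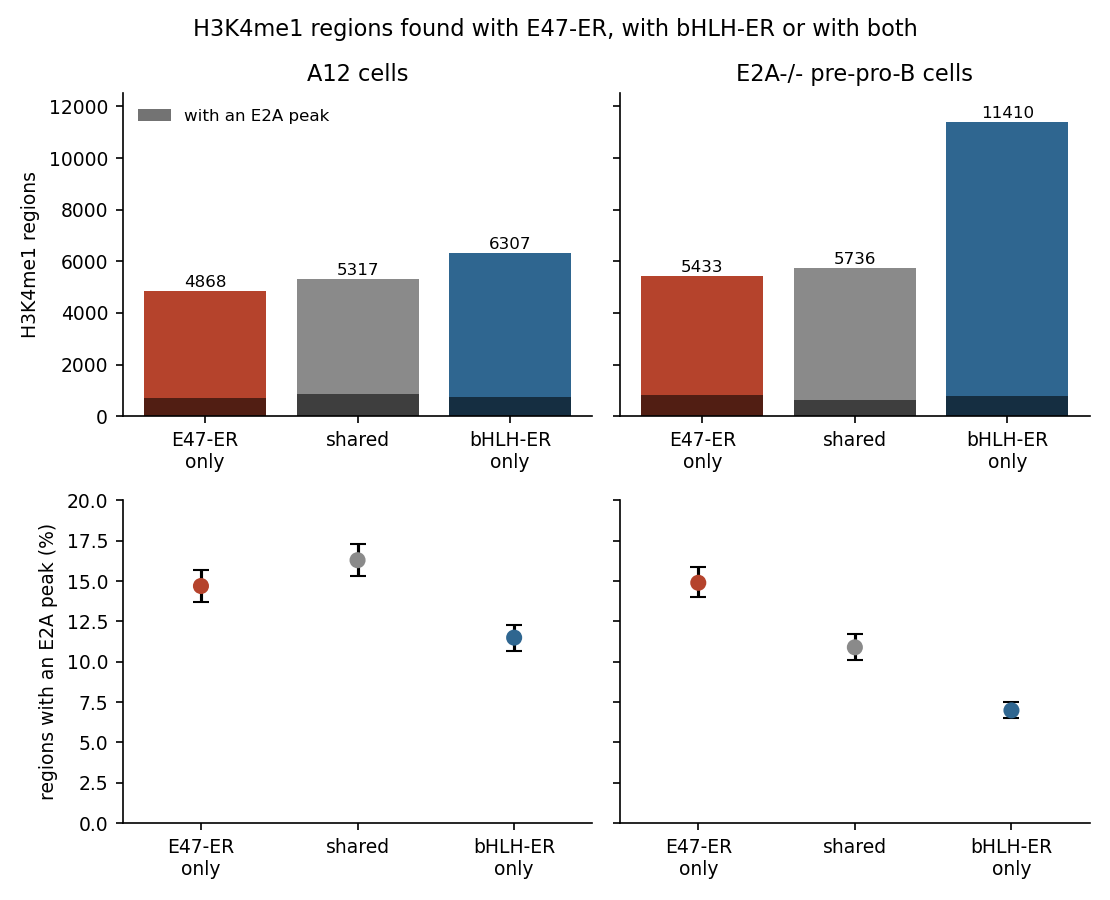
Upper panels: number of H3K4me1 regions found with E47-ER only, with both proteins or with bHLH-ER only, in A12 cells (left) and E2A-/- pre-pro-B cells (right), with the dark part holding an E2A peak. Lower panels: percentage of each class with an E2A peak and its 95% Wilson interval; in A12 cells the shares are 14.7%, 16.3% and 11.5%.

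E2A peaks, mapped only in cells with E47-ER, were more frequent in the high-scoring regions of both H3K4me1 lists. In the E47-ER list, E2A peaks lay in 6.20% of the regions scored 16 to 22 and in 37.0% of those scored 49 or more. In the bHLH-ER list they lay in 5.97% of the regions scored 14 to 17 and in 32.5% of those scored 40 or more. At the low end, single-list and shared regions differed in opposite ways in the 2 lists. Among the lowest-scoring E47-ER regions, E2A was present in 7.37% of those not shared and in 4.15% of those shared. Among the lowest-scoring bHLH-ER regions it was present in 3.62% of those not shared and in 11.4% of those shared. Low-scoring bHLH-ER regions thus held E2A more often where E47-ER cells had a region as well. Among bHLH-ER regions scored 40 or more, the unshared ones held E2A about as often as the shared ones, 34.1% (30.2% to 38.1%) against 30.9% (27.2% to 34.9%). Among E47-ER regions scored 23 to 28, the unshared ones held E2A more often (13.6% against 7.64% of the shared). At 49 or more their share was the lower one, but the intervals overlapped (32.9%, 28.3% to 37.8%, against 39.4%, 35.7% to 43.2%).

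**Figure D2:**
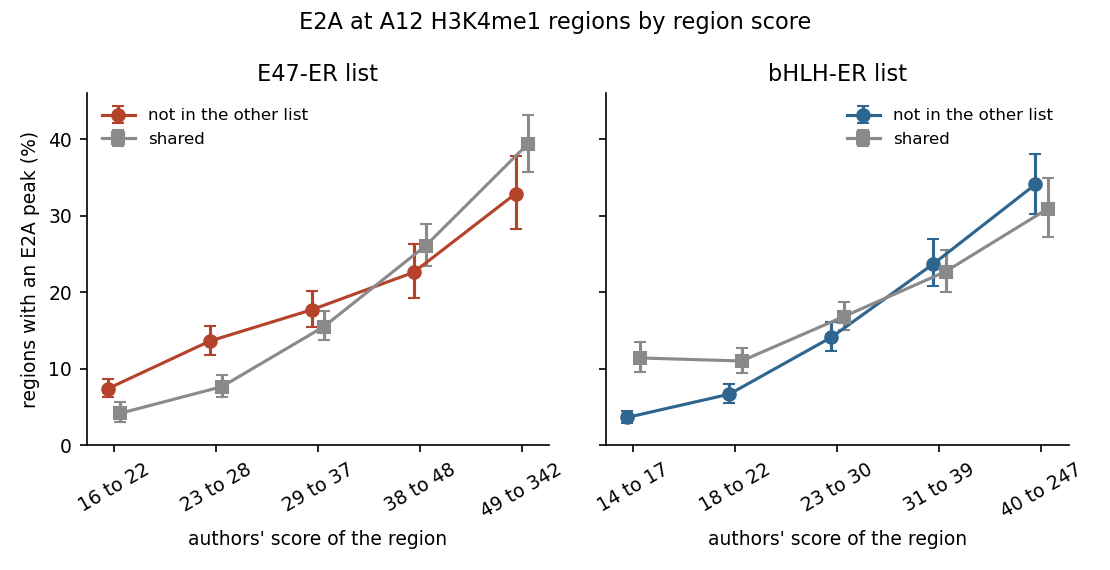
Percentage of A12 H3K4me1 regions with an E2A peak, by the authors' score of the region, for regions absent from the other list and for shared regions; bars are 95% Wilson intervals. Both lists climb with score, and at the lowest scores unshared regions lie above shared ones in the E47-ER list and below them in the bHLH-ER list.

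Most E2A peaks had no H3K4me1 region of either list at the site: 14616 of 17030 (85.8%), and 77.5% still had none within 5 kb. The remainder divided almost evenly, with 775 peaks in E47-ER-only regions (4.55%), 822 in shared regions (4.83%) and 817 in bHLH-ER-only regions (4.80%). The strength of the E2A peak separated them. Of the 5977 weakest peaks, scored 6 or 7, 284 (4.75%) lay in E47-ER-only and 198 (3.31%) in bHLH-ER-only regions. Of the 1698 strongest peaks, scored 21 or more, 45 (2.65%) lay in E47-ER-only and 139 (8.19%) in bHLH-ER-only regions.

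The change with E2A strength was also measured for regions centred on the peak itself. Over all 17030 peaks, an E47-ER region was centred within 250 bp of 5.38% and a bHLH-ER region within 250 bp of 5.64%, nearly the same share. Of the weakest peaks, 345 had a centred E47-ER region (5.77%, interval 5.21% to 6.39%) and 293 a centred bHLH-ER region (4.90%, 4.38% to 5.48%). Of the strongest peaks, 60 had a centred E47-ER region (3.53%, 2.76% to 4.52%) and 124 a centred bHLH-ER region (7.30%, 6.16% to 8.64%). The intervals of the 2 proteins overlapped at scores from 6 to 20 and were apart at 21 or more. The strongest peaks were singled out after their values were seen. The gap of -3.77 points at the strongest peaks was -3.53 points with lists of equal length and -2.59 points with only the upper 50% of each H3K4me1 list by score.

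**Figure D3:**
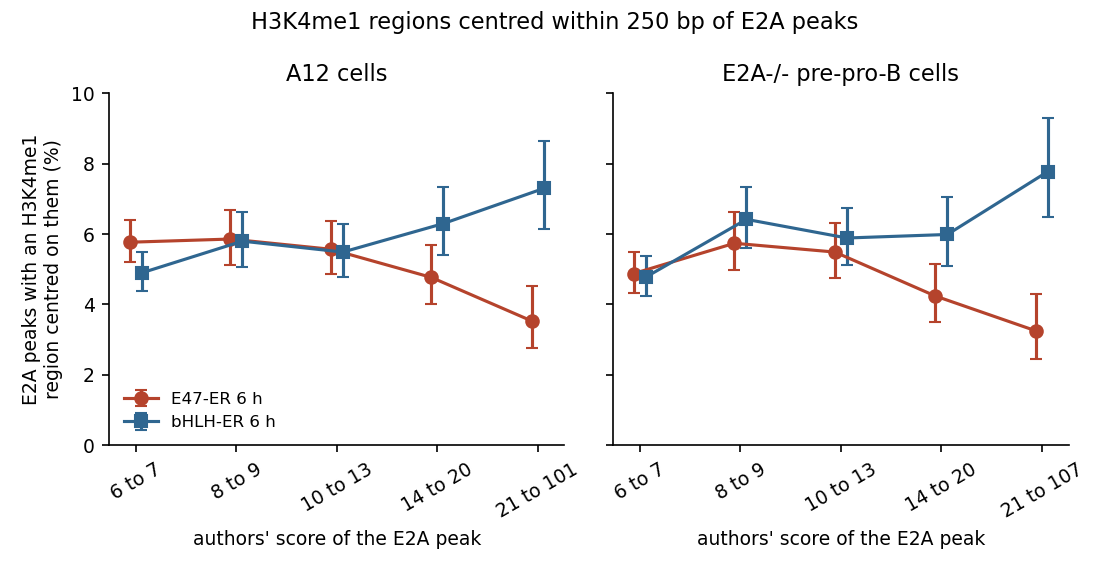
Percentage of E2A peaks with an H3K4me1 region centred within 250 bp, by the authors' score of the E2A peak, in A12 cells (left) and E2A-/- pre-pro-B cells (right), with 95% Wilson intervals. In both cells the lines lie close together up to score 13 and part above it, reaching 3.53% for E47-ER and 7.30% for bHLH-ER at the strongest A12 peaks.

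The gap at the strongest peaks reached to about 500 bp from the peak centre. From 250 bp to 1 kb away, 5.54% of the strongest peaks had an E47-ER region (4.55% to 6.73%) and 7.18% a bHLH-ER region (6.05% to 8.51%). In bins of 250 bp, the pair of bins next to the peak centre held 17.1 and 18.3 E47-ER region centres per 1000 peaks, against 40.0 and 33.0 for bHLH-ER. The bins from 250 to 500 bp on either side held 12.4 and 7.07 for E47-ER and 22.4 and 21.2 for bHLH-ER. In the bins from 500 to 750 bp on either side, E47-ER had 11.2 and 12.4 per 1000 peaks and bHLH-ER 7.66 and 7.66. Around the strongest peaks the E47-ER curve was thus low and broad, and the bHLH-ER curve stood up at the centre. Of the 124 strongest peaks with a centred bHLH-ER region, 34 had an E47-ER region centred there too, 22 had one only beside it and 68 (54.8%) had none within 5 kb. In the reverse direction, 34 of the 60 strongest peaks with a centred E47-ER region (56.7%) also had a centred bHLH-ER region and 24 had none within 5 kb. Where the centred E47-ER region was missing, no listed region nearby was thus more common than one displaced to the side. At the weakest peaks with a centred bHLH-ER region, 105 of 293 (35.8%) had no E47-ER region within 5 kb.

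**Figure D4:**
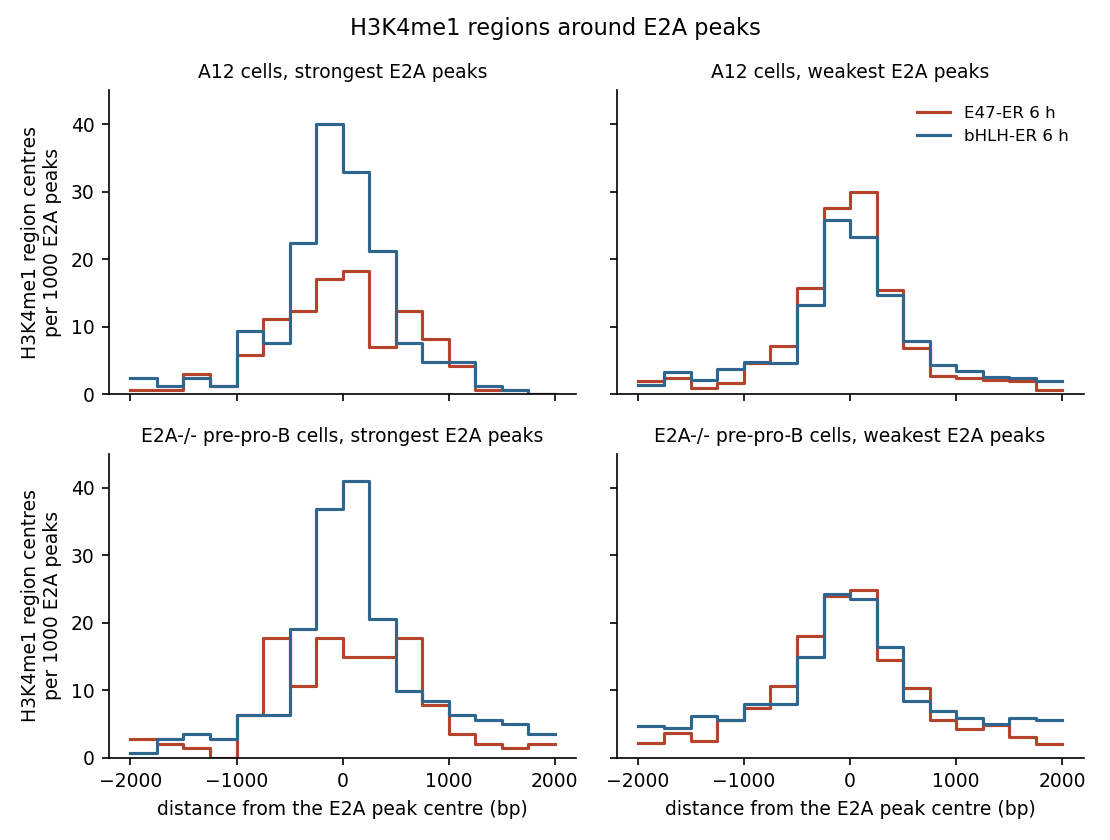
H3K4me1 region centres per 1000 E2A peaks in bins of 250 bp around the peak centre, for the strongest peaks (score 21 or more, left) and the weakest (score 6 or 7, right), in A12 cells (top) and E2A-/- pre-pro-B cells (bottom). At the strongest A12 peaks the central bins hold 17.1 and 18.3 E47-ER centres against 40.0 and 33.0 bHLH-ER centres, and at the weakest peaks the curves lie close together.

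The same pair of proteins was studied in E2A-/- pre-pro-B cells, B lineage progenitors that likewise lack E2A. There the lists held 11169 regions with E47-ER and 17146 with bHLH-ER, of which 5433 (48.6%) were E47-ER only and 11410 (66.5%) bHLH-ER only. E2A peaks lay in 12.8% of E47-ER regions and 8.66% of bHLH-ER regions. The share with E2A was 14.9% in E47-ER-only, 10.9% in shared and 6.99% in bHLH-ER-only regions. E47-ER-only regions thus ranked first there, whereas in A12 cells the shared ones did, with an interval that overlapped that of E47-ER-only regions. The dependence on E2A strength had the same direction in both cells. Over all 15386 pre-pro-B peaks, 4.94% had a centred E47-ER region and 5.80% a centred bHLH-ER region. Of the 1414 scored 21 or more, 3.25% had a centred E47-ER region (2.45% to 4.31%) and 7.78% a centred bHLH-ER region (6.49% to 9.29%), and with lists of equal length the gap was -3.04 points. After only 1 h of E47-ER in pre-pro-B cells, 4.31% of those peaks had a centred region (3.37% to 5.50%), below bHLH-ER and with an interval that overlapped the one at 6 h.

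A12 regions were largely absent from the pre-pro-B lists of either protein. Of the E47-ER-only regions 80.0%, of the shared 71.8% and of the bHLH-ER-only 80.7% lay in neither 6 h pre-pro-B list. Only 284 A12 E47-ER-only regions (5.83%) were E47-ER only in pre-pro-B cells as well, and 536 bHLH-ER-only regions (8.50%) were bHLH-ER only in both. In the H3K4me1 lists of other cells, regions found with both proteins in A12 were met more often than those of 1 list. The H3K4me1 list of RAG1-/- pro-B cells held 15.0% of E47-ER-only, 19.4% of shared and 12.7% of bHLH-ER-only regions, and that of EBF-/- pre-pro-B cells held 7.19%, 13.4% and 8.24% in the same order. H3K4me3, the mark of active promoters, overlapped few of them: 3.27%, 3.89% and 3.27% in RAG1-/- cells. Where A12 regions held an E2A peak, a peak of the 6 h pre-pro-B E2A list coincided in 39.5% of E47-ER-only, 33.2% of shared and 41.2% of bHLH-ER-only regions, against 41.7% of all A12 E2A peaks. Over all regions of a class, with or without E2A in A12, the 6 h pre-pro-B E2A list met 10.2% of E47-ER-only and 9.05% of shared regions (E47-ER list), so the order of the H3K4me1 lists did not hold there.

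Regions were set against genes through the positions of array probes, which are on the same build (mm8), counting a gene as near when a region lay within 50 kb of any of its probes. Of 19576 genes, 26.6% had an E47-ER-only, 28.8% a shared and 32.4% a bHLH-ER-only region near, 5.88% an E47-ER-only and 5.35% a bHLH-ER-only region with E2A, and 55.6% an E2A peak. Genes with E2A peaks nearby had H3K4me1 regions more often than genes without. Both were counted in the same window, which is longer for genes whose probes lie further apart, and the counts were not scaled to it. E47-ER-only regions were near 13.0% of the genes with no E2A peak, 35.2% of those with 1 or 2, 40.7% with 3 to 5, 39.6% with 6 to 9 and 36.9% of the 244 genes with 10 to 17. For bHLH-ER-only regions the shares in the same order were 15.9%, 41.4%, 49.1%, 53.6% and 55.7%. The defining T cell markers had E2A peaks near all 14 that could be placed, against 7 of 10 B cell, 4 of 6 myeloid and 1 of 5 natural killer markers. Some T cell markers lie close together, namely the CD3 chain genes and also Rag1 and Rag2, so they count partly the same E2A peaks. H3K4me1 regions did not set the T markers apart: 8 of 14 had one near (57.1%, against 57.8% of all genes), and 7 of 10 B cell, 5 of 6 myeloid and 3 of 5 natural killer markers did. The CD3 chain genes Cd3e, Cd3d and Cd3g, the coreceptor gene Cd4 and the T lineage factors Tcf7 and Bcl11b had 3 to 6 E2A peaks each and no H3K4me1 region in either list.

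The 12 gene lists held 176 placed genes, of which 61 (34.7%) had an E47-ER-only and 82 (46.6%) a bHLH-ER-only region near. Over all genes the shares were 26.6% and 32.4%. With E2A in the region, the counts were 8 (4.55%) and 20 (11.4%), against 5.88% and 5.35% of all genes. Listed genes also had an E2A peak near more often, 73.9% against 55.6% of all genes. Some neighbouring genes, such as Rag1 and Rag2, count the same region. Counts of the lists at 50 kb are given without a test, and several depended on the distance. Among T cell receptor and surface genes, 8 of 23 had an E47-ER-only region and 14 of 23 (60.9%) a bHLH-ER-only one. Among recombination genes 2 of 8 and 6 of 8 did, among E and Id protein genes 4 of 11 and 7 of 11, and among survival genes 3 of 8 and 7 of 8. Within 20 kb, T cell receptor and surface genes had 4 and 4, recombination genes 1 and 0, E and Id protein genes 3 and 5, and survival genes 1 and 5. Of the B lineage genes, 12 of 21 (57.1%) were near an E47-ER-only and 7 of 21 near a bHLH-ER-only region, where Vpreb1 and Igll1 count the same region. These were 8 and 2 within 20 kb and 14 and 13 within 100 kb. Cell cycle genes had 5 and 2 of 15, but 1 and 1 within 20 kb and 7 and 8 within 100 kb. T lineage factors were even, at 8 of 21 each, as the cytokine and chemokine list nearly was, at 9 and 11 of 20. Genes of tissues outside blood had 1 of 15 and 7 of 15, so higher counts for bHLH-ER were not limited to lymphoid lists. Notch pathway genes had 3 and 5 of 11, natural killer genes 2 and 3 of 11, and myeloid genes 4 and 5 of 12.

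**Figure D5:**
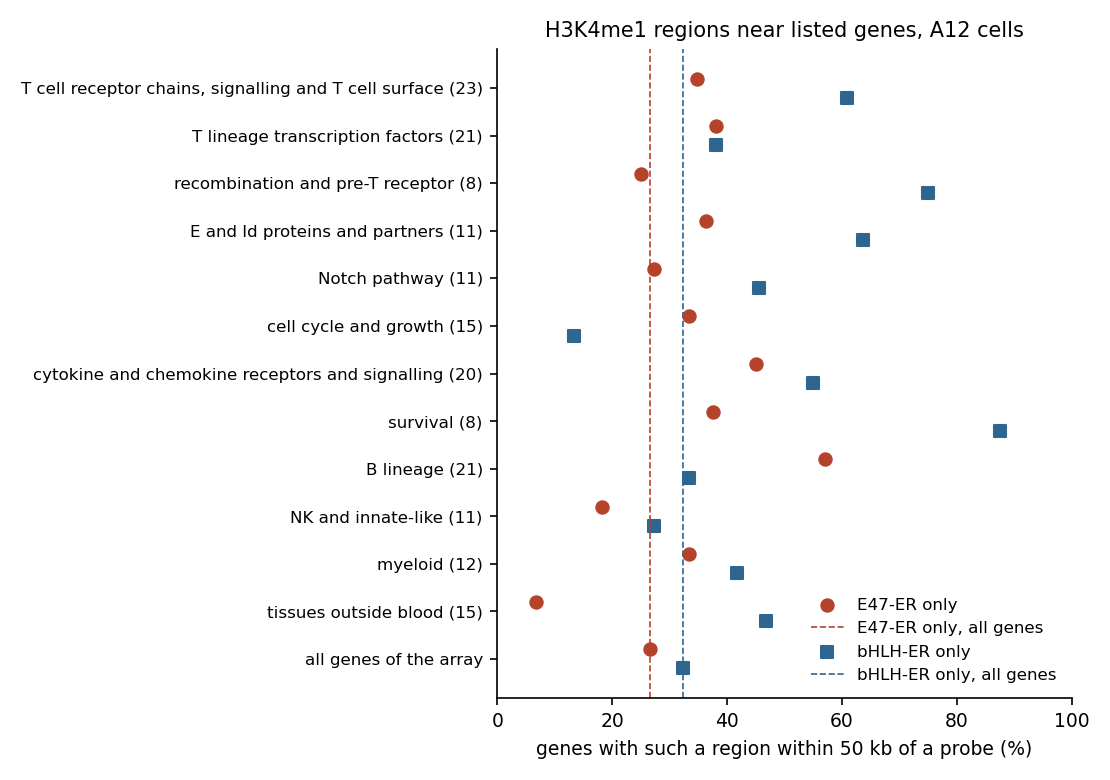
Percentage of the genes of each list with an E47-ER-only (circles) or bHLH-ER-only (squares) H3K4me1 region within 50 kb of a probe in A12 cells; the number of placed genes is in brackets and dashed lines give all 19576 genes (26.6% and 32.4%). At this distance the recombination, survival and T cell receptor lists lie to the right for bHLH-ER and the B lineage list for E47-ER; the counts differ at 20 and 100 kb.

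E2A scores of the regions near listed genes, a subset of the regions above, are given as examples. Of 74 E47-ER-only regions, 9 held an E2A peak, with a median E2A score of 10.0 and 1 peak scored 21 or more. Of 98 bHLH-ER-only regions, 20 held one, with a median score of 11.5 and 6 peaks scored 21 or more. Those 6 were near Heyl, a Notch target gene (E2A score 37), near Gfi1, a transcriptional repressor of lymphoid progenitors (29), near Tgfbr2, a receptor for transforming growth factor beta (29), and near Tcf3 (23), the myeloid factor gene Cebpb (23) and the E protein inhibitor gene Id2 (21). The region near Heyl, chr4:122762283-122763282 (mm8), lay 66.2 kb from the nearest E47-ER region. The one near Gfi1, chr5:107978164-107979163, lay 21.2 kb from one, and was also an H3K4me1 region in RAG1-/- pro-B cells. The single E47-ER-only region with such a peak was at Tcf3 itself.

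Apart from the region at Tcf3, the E2A peaks in E47-ER-only regions near listed genes scored from 6 to 15. Most E2A peaks in bHLH-ER-only regions near these genes also scored below 21. The 10 shared regions with E2A near these genes had a median E2A score of 10.0, and none scored 21 or more. Near Il7r, the receptor chain for interleukin 7, chr15:9436955-9437954 had an E2A peak scored 15, and the nearest bHLH-ER region was 132 kb away. Near Notch2, 2 of 3 E47-ER-only regions held E2A, chr3:98200250-98201249 (E2A score 12) and chr3:98186479-98187478 (7), and Notch2 had no bHLH-ER region within 50 kb. The growth regulator Myc, the forkhead factor gene Foxo1, the cytokine signalling inhibitor gene Socs3, the E protein gene Tcf12 and the DNA repair kinase gene Prkdc had 1 each, with E2A scores from 6 to 11. Foxo1 and Socs3 each also had a bHLH-ER-only region with E2A at a different position. Zap70, a kinase of T cell receptor signalling, had 3 E47-ER-only regions and none with bHLH-ER, but none of the 3 held an E2A peak.

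The recombinase genes Rag1 and Rag2, which adjoin each other, shared 1 bHLH-ER-only region, chr2:101465877-101466876. It had the low score of 16, held an E2A peak scored 10 that lay 8 bp from its centre, recurred in the H3K4me1 list of RAG1-/- pro-B cells, and was 90.6 kb from the nearest E47-ER region. The coreceptor gene Cd8a had 10 E2A peaks within 50 kb and 1 bHLH-ER-only region, chr6:71316691-71317690, with an E2A peak scored 6. Ptcra, the pre-T receptor chain, and Lck, a kinase bound to CD4 and CD8, each had 1 bHLH-ER-only region without E2A. Dntt, which adds bases at receptor gene joints, had 2 shared regions. None of these 6 genes had an E47-ER-only region within 50 kb, though Lck had 1 within 100 kb. Thy1 and Gata3, of the same marker list, had 1 each beside 2 and 1 with bHLH-ER only. Of all 14 placed T cell markers, 2 (14.3%) had an E47-ER-only region near, against 26.6% of all genes. For bHLH-ER-only regions it was 7 (50.0%), against 32.4% of all genes, with Rag1 and Rag2 counting the same region. The markers had a median of 5 E2A peaks near. Among all genes with 3 to 5 E2A peaks, the shares were 40.7% for E47-ER-only and 49.1% for bHLH-ER-only regions. Within 20 kb, only Cd8a and Thy1 of the markers had a bHLH-ER-only region, and none had an E47-ER-only one.

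Among all genes, Nav2, which regulates axon outgrowth, had the most E47-ER-only regions (6, with 2 bHLH-ER-only), and the kinase gene Map4k4, Nhsl1, the RNA decay gene Smg6 and the egg coat gene Zp3 had 5 each. Dtnb, a dystrobrevin, had the most bHLH-ER-only regions (7, of which 3 held E2A, with 1 E47-ER-only). The cell adhesion gene Cadm1 had 6, and Aopep and the guanylate cyclase gene Gucy1b2 had 5 each. These counts were not scaled to gene length.

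The highest-scoring E47-ER-only region with E2A and a named gene within 50 kb lay near Tmem181a (score 117, rank 3 of the list), and its 2 E2A peaks scored 12 and lower. Pld3, of the phospholipase D family, followed with 84, then the hydrolase gene Abhd2 with 81, Krtap12-1 with 80, the Mediator subunit gene Med27 and the ion channel gene Trpm1 with 79 each, the somatostatin receptor gene Sstr3 with 78, 1700013G24Rik with 77, the lipid transfer gene Vps13d with 76 and Esr1 with 74. Their best E2A peaks scored from 6 to 12 except at 1700013G24Rik, where it scored 30. The top bHLH-ER-only regions with E2A were near the chaperone gene Dnajb12 (score 94), Tcf3 (77), the RNA-binding factor gene Zfp36l2 (74), Bahcc1 (72) and the kinase gene Cdk3 (67), with E2A scores of 32, 23, 9, 32 and 13. High E2A scores were thus seen at 3 of these 5 regions and at 1 of those 10. Without E2A, the top bHLH-ER-only regions were near the autophagy gene Uvrag (94), Emsy (82), Plekha2 (78), the Ras effector gene Rin1 (76) and the vitamin K enzyme gene Vkorc1 (72). The top shared region, near the centrin-binding gene Sfi1, scored 342 and coincided with an E2A peak scored 81, the third of that list, while the next 4, near Prodh (115), Tmem234 (111), Rnf41 (104) and Abcc6 (103), held no E2A.

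The genes that the construct itself carries, Tcf3 and Esr1, had E47-ER-only regions that coincided with E2A peaks. Tcf3, which encodes E2A, had 3 A12 regions. One, chr10:79813100-79814099 (score 71, rank 100), was E47-ER only, lay at a Tcf3 probe and coincided with E2A peaks in A12 cells (score 24) and in pre-pro-B cells with E47-ER, where it was the top peak of the 1 h list (score 166). No other H3K4me1 list had a region there, and an EBF1 peak of RAG1-/- pro-B cells (score 11) did coincide with it. The second, chr10:79775204-79776203, was shared and also present in RAG1-/- and EBF-/- cells. The third, chr10:79847508-79848507 (score 77, rank 13), was bHLH-ER only, held an E2A peak scored 23 and was an H3K4me1 region in RAG1-/- pro-B cells too.

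Esr1, the estrogen receptor gene, had regions with E47-ER at 5 positions, from chr10:5344740-5345739 to chr10:5488993-5489992, with scores of 74, 54, 43, 44 and 58. The E2A list of A12 had peaks at 4 of the 5, and the 1 h pre-pro-B E2A list had peaks at all 5, with ranks 4, 6, 43, 10 and 5. The bHLH-ER list had regions at 2 of the 5, scored 23 and 14. The 1 h pre-pro-B H3K4me1 list with E47-ER had regions at 3 of them, scored 23, 28 and 25. The 6 h pre-pro-B H3K4me1 lists of both proteins had none, and neither did any library of cells without an ER fusion or the mock immunoprecipitation. Reads from the retroviral construct and reads from the cells' own Tcf3 and Esr1 genes cannot be told apart in these lists. Regions and peaks within 50 kb of a probe of these 2 genes were left out as a check. The strongest E2A peaks then had a centred E47-ER region in 3.48% and a centred bHLH-ER region in 7.31% of cases. That distance did not reach the Esr1 position with an A12 E2A peak scored 22, 146 kb from the first Esr1 probe. The check therefore did not leave out all of the Esr1 positions.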

How the data were processed

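ChIP-seq reads were processed by the authors with HOMER on the mouse build mm8, per the submitters' processing notes; its version and settings, and the read depth behind each list, are not given in the sources used here. The deposited score of each region was used as given, with no further normalization, and only within its list. Regions counted as shared, or as E2A-bound, when they overlapped by at least 1 bp. Score groups were bounded by each list's quartiles and 90th percentile, with ties kept together, and the E2A groups of A12 were used for pre-pro-B cells too. Genes were placed by the probe coordinates of the deposited Agilent arrays, on build mm8 per the file headers; of 41174 probes, 23103 were named by accession, 6943 by symbol and 2972 by synonym through RefSeq genes of assembly GRCm38.p6, and 47 genes placed at several sites were left out. Cd8b1 and Zbtb16 had no position.

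Work used Python 3.11.15, pandas 2.3.3, numpy 2.4.6 and scipy 1.17.1, and the overlap steps were tested on simulated data. The comparison, its members and the gene lists were chosen with earlier results of these data known. Named genes are those with most single-list regions in each list, those near the top-scoring regions of each class, and those with most regions overall; the strongest E2A peaks, and counts by number of E2A peaks, were added after seeing the data. One gene that this rule names is not reported here.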

Additional observations from a re-analysis of the deposited data

Results flagged for a closer look

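The order of the classes by E2A share differed between the 2 kinds of cells. E47-ER-only regions stood -1.60 percentage points from the shared regions in A12 cells and 4.08 points from them in E2A-/- pre-pro-B cells, opposite signs under the same contrast. With 1 library for each protein and cell, the difference was not tested. In A12 cells the intervals of the 2 classes overlapped, and the sign differed between score groups of the E47-ER list. The signs stayed the same with lists of equal length, at -2.56 points in A12 cells and 3.60 points in pre-pro-B cells.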

How the results depend on the processing

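No paired analysis was possible because each protein has 1 library and the results come from no test. Class sizes in A12 moved by less than 1.5 times under all alternatives except the upper 50% of each list, which holds fewer regions by construction (2603 E47-ER-only and 3329 bHLH-ER-only). The shared percentage of the E47-ER list was 48.6% at an overlap of at least 50%, 53.2% within 1 kb, 48.9% in the upper 50% of each list and 48.8% with lists of equal length. The E2A share of E47-ER-only and bHLH-ER-only regions was 18.4% and 15.2% with a peak within 1 kb, 21.3% and 20.5% within 5 kb, 6.92% and 7.17% with the upper 50% of the E2A list, and 22.0% and 17.6% with the upper 50% of each H3K4me1 list. With lists of equal length it was 13.5% for bHLH-ER-only regions. Their difference was 4.41 points with the upper 50% of each H3K4me1 list, 3.25 within 1 kb, 0.833 within 5 kb, 0.775 with lists of equal length and, reversed, -0.244 with the upper 50% of the E2A list; the cause was not tested. Over all scores, the difference between E47-ER-only and shared regions kept its sign under these alternatives.

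An E2A centre lay within 250 bp of the region centre in 8.59% of E47-ER-only and 6.63% of bHLH-ER-only regions. These values were 16.1% and 12.4% from the region edge, and 4.11% and 3.95% with the upper 50% of the E2A list. At the strongest E2A peaks, alternatives chosen after seeing the data kept bHLH-ER above E47-ER: 1.71% and 3.24% centred within 100 bp (difference -1.53 points), 5.42% and 11.6% within 500 bp (-6.18 points), with bHLH-ER at 5.71% in the upper 50% of each list and, in pre-pro-B cells, at 6.29% with lists of equal length. Within 1 kb, E47-ER-only, shared and bHLH-ER-only regions met the pre-pro-B E47-ER list in 13.4%, 19.8% and 12.2%, the pre-pro-B bHLH-ER list in 16.4%, 23.7% and 17.1%, and the RAG1-/- list in 17.7%, 21.9% and 16.2%. E47-ER-only and bHLH-ER-only regions met the EBF-/- list in 7.97% and 9.07%. With lists of equal length, pre-pro-B cells had 6582 bHLH-ER-only regions and a difference in E2A share of 4.91 points. Within 20 kb, 30 listed genes had an E47-ER-only and 35 a bHLH-ER-only region. Depth is unknown, and a region absent from a list may lie just under its threshold.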
